A study of Mus musculus with 9 samples.

Results

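The reactive astrocyte genes described here are Gfap, Vim, Nes, Lcn2, Serpina3n, Steap4, Aspg, Cd44, S1pr3 and Ptx3, a list of 10 genes taken by name from the 18138 genes of a mouse brain RNA-seq count table. All 10 were found in the table, and 9 of them were among the 14756 genes with enough counts to be tested; Ptx3 was not. The study compared 3 groups of 3 libraries. Control libraries came from brain labelled only as control. MCAO libraries came from mice with middle cerebral artery occlusion, a surgical model of ischaemic stroke. Hypidone libraries came from mice that had the same surgery and then received hypidone hydrochloride, an antidepressant compound, at 5 mg/kg for 7 days in a row. The labels give no strain, age, sex, brain region, hemisphere, sham operation, vehicle or time after surgery. Nor do they tie each library to its own mouse: the spread behind a p-value is that between libraries and could be technical. Libraries are named by group and by the number in their title, and only control and MCAO libraries share numbers (4, 5 and 6; hypidone libraries are 2, 7 and 8).

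Astrocytes answer brain injury by changing shape and gene expression, a state called reactive. They add intermediate filaments built from GFAP, vimentin and nestin, secrete proteins such as lipocalin-2, the protease inhibitor serpin A3N and pentraxin 3, and carry more of the hyaluronan receptor CD44 at their surface. Cytokines that signal through STAT3, and inflammatory signals that act through NF-kB and C/EBP factors, are known inputs to this state. Several of these genes are also used by other cells: vimentin and CD44 are made by microglia, macrophages, endothelial cells and fibroblasts, and lipocalin-2 by neutrophils. In RNA from whole tissue, fewer cells of a type and less RNA per cell cannot be told apart.

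The promoter stretches of 5 of the genes that moved together in the comparisons below are shown. They were picked because their windows hold letters that match the sites of these factors. Aspg and Cd44 moved with them, but their windows held no match to any of the 6 motifs searched. The stretches come from RefSeq windows on GRCm38.p6, from 250 bases before to 50 bases after each gene's start, with the start counted as 1 and no position 0. All 10 genes had a window. Both strands were searched for 6 motifs, and the capitals mark matches to STAT (TTCNNNGAA), NF-kB (GGGNNTTTC), C/EBP (TTGCNNAA) or the TATA box (TATAAA), which on the other strand read as the reverse complement.
Gfap, chr11:102897194-102897222, minus strand, with a STAT match: aggctattcaatgggggtgcTTCCAGGAA
Serpina3n, chr12:104406517-104406565, plus strand, with an NF-kB match: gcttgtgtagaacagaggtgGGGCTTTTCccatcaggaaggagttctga
Lcn2, chr2:32387928-32387975, minus strand, with a C/EBP match: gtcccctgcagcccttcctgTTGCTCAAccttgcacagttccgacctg
Steap4, chr5:7960227-7960412, plus strand, with matches in the order NF-kB, TATA box, STAT and C/EBP: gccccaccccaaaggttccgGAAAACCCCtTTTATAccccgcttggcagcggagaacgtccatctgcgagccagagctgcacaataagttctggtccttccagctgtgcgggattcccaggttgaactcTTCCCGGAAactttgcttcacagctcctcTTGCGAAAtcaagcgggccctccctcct
Vim, chr2:13574069-13574304, plus strand, with an NF-kB match and a TATA box: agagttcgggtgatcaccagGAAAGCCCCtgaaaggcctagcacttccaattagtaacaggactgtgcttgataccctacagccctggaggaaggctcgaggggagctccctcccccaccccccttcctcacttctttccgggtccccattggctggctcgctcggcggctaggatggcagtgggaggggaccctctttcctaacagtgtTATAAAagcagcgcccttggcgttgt

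The STAT motif was found in the windows of Gfap, at -2 to 7, and Steap4, at -116 to -108, and in 8.30% of all 32851 windows. The NF-kB motif was found in those of Vim, Serpina3n and Steap4 and in 4.36% of all windows, and the C/EBP motif in those of Lcn2, Steap4 and Ptx3 and in 10.8%. The TATA box letters stood in the windows of Vim, at -32 to -27, and Steap4, at -215 to -210 on the opposite strand, and in 13.6% of all. A glucocorticoid receptor motif (ACANNNTGT) was found in those of Lcn2 and Serpina3n and in 6.85% of all, and an AP-1 motif (TGANTCA) in none of the 10 and in 7.81% of all. These are matches of letters in short windows, and binding was not measured. On GRCm38 with GENCODE M21 genes, Gfap spans chr11:102887336-102900912, Vim chr2:13573927-13582826, Nes chr3:87971078-87980451, Lcn2 chr2:32384633-32388252, Serpina3n chr12:104406729-104414329, Steap4 chr5:7960457-7982213, Aspg chr12:112106679-112127559, Cd44 chr2:102811141-102901665, S1pr3 chr13:51408639-51422797 and Ptx3 chr3:66219910-66225805. All are protein-coding, and S1pr3 alone shares exon bases with another annotated gene, the lincRNA Gm32834 on the opposite strand.

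Each library held between 32075682 (control 4) and 37325027 (MCAO 4) counts over all genes. CPM below are counts scaled to a common library size with TMM factors. The MCAO libraries were the most unlike each other, with a biological coefficient of variation of 41.4% against 29.4% in control and 14.5% in the hypidone group. Control 5 stood apart from all other libraries: 10 hippocampal neuron markers summed to 1075 CPM there and to no more than 429 CPM in any other library. In the same way, 8 choroid plexus and ependymal markers summed to 211 CPM in control 5 and to no more than 19.9 CPM in any other library. All 14 resting astrocyte markers were detected in every library. The glutamate transporter gene Slc1a2, an astrocyte marker, ran from 2582 to 3426 CPM over the 9 libraries.

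The filament gene Gfap, whose protein defines fibrous and reactive astrocytes, stood at 204, 659.9 and 117 CPM in controls 4, 5 and 6, at 612, 2827 and 3257 CPM in MCAO 4, 5 and 6, and at 537, 294 and 290.0 CPM in hypidone 2, 7 and 8. MCAO 5 and MCAO 6 lay far above all other libraries, while MCAO 4 lay below control 5, so the control and MCAO groups overlapped. All hypidone libraries lay below all MCAO libraries and within the control range. As a share of all counts, Gfap made up 0.0115 to 0.0665% in controls, 0.0577, 0.305 and 0.336% in MCAO 4, 5 and 6, and 0.0287 to 0.0534% in hypidone libraries.

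Vim encodes vimentin, the filament protein that assembles with GFAP. It was at 39.7, 55.8 and 41.0 CPM in control, at 57.7, 1187 and 675 CPM in MCAO, and at 62.2, 87.4 and 65.1 CPM in hypidone libraries. Every MCAO library was above every control, but MCAO 4 by a small margin, and MCAO 4 was below all hypidone libraries. The span within MCAO, 20.6-fold from lowest to highest, was the widest of the 9 tested genes. Nes encodes nestin, a filament of neural progenitors that reactive astrocytes make again. It was at 7.86, 7.41 and 10.3 CPM in control, at 3.50, 33.2 and 19.5 CPM in MCAO, and at 7.31, 9.62 and 6.56 CPM in hypidone libraries. Here MCAO 4 was the lowest of all 9 libraries and MCAO 5 and 6 the highest.

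Among the genes of secreted proteins, Serpina3n, a serine protease inhibitor, was at 8.34, 61.1 and 15.2 CPM in control, at 41.1, 537 and 474 CPM in MCAO, and at 30.5, 16.4 and 15.3 CPM in hypidone libraries. Control 5 lay above MCAO 4, and all hypidone libraries lay below MCAO 4. Serpina3n belongs to a family of similar genes in 1 cluster, so reads could be divided between copies; the 6 family members in the count table other than Serpina3n summed to at most 5.00 CPM in any library. Lcn2 encodes lipocalin-2, which binds iron-carrying siderophores. It was at 0.351, 3.53 and 2.46 CPM in control, at 5.40, 26.2 and 58.1 CPM in MCAO, and at 1.01, 2.80 and 2.20 CPM in hypidone libraries. All MCAO libraries were above all 6 others. Ptx3, which encodes a secreted pattern recognition protein, was near the limit of detection: it had 0, 7 and 1 counts in control, 6, 158 and 41 in MCAO, and 1, 2 and 2 in hypidone libraries. The 0 of control 4 allows up to 3 counts, or 0.0935 CPM before TMM scaling, for counting error only. Nearly all its counts came from MCAO 5 and MCAO 6, and MCAO 4 was within the control range.

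The surface and enzyme genes were lower in level. Steap4, a membrane reductase of iron and copper, was at 0.256, 0.109 and 0.150 CPM in control, at 1.96, 11.98 and 3.16 CPM in MCAO, and at 0.317, 1.59 and 0.439 CPM in hypidone libraries. The control group rests on 17 counts in all, and the groups did not overlap in any of the 3 pairings. Aspg, which encodes an asparaginase, was at 1.50, 0.652 and 1.08 CPM in control, at 3.58, 39.9 and 23.8 CPM in MCAO, and at 1.96, 1.80 and 2.81 CPM in hypidone libraries. Its groups did not overlap either, with hypidone between control and MCAO.

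Cd44, the hyaluronan receptor gene, was at 1.63, 4.70 and 1.17 CPM in control, at 4.44, 38.4 and 22.0 CPM in MCAO, and at 3.31, 3.84 and 2.75 CPM in hypidone libraries. MCAO 4 was just below control 5 and above all hypidone libraries. S1pr3, a receptor for the lipid mediator sphingosine-1-phosphate, was at 10.9, 5.97 and 9.17 CPM in control, at 3.21, 12.01 and 6.18 CPM in MCAO, and at 12.9, 9.74 and 8.55 CPM in hypidone libraries. It was the only one of the 10 genes at its highest in a hypidone library, and all its groups overlapped.

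**Figure D1:**
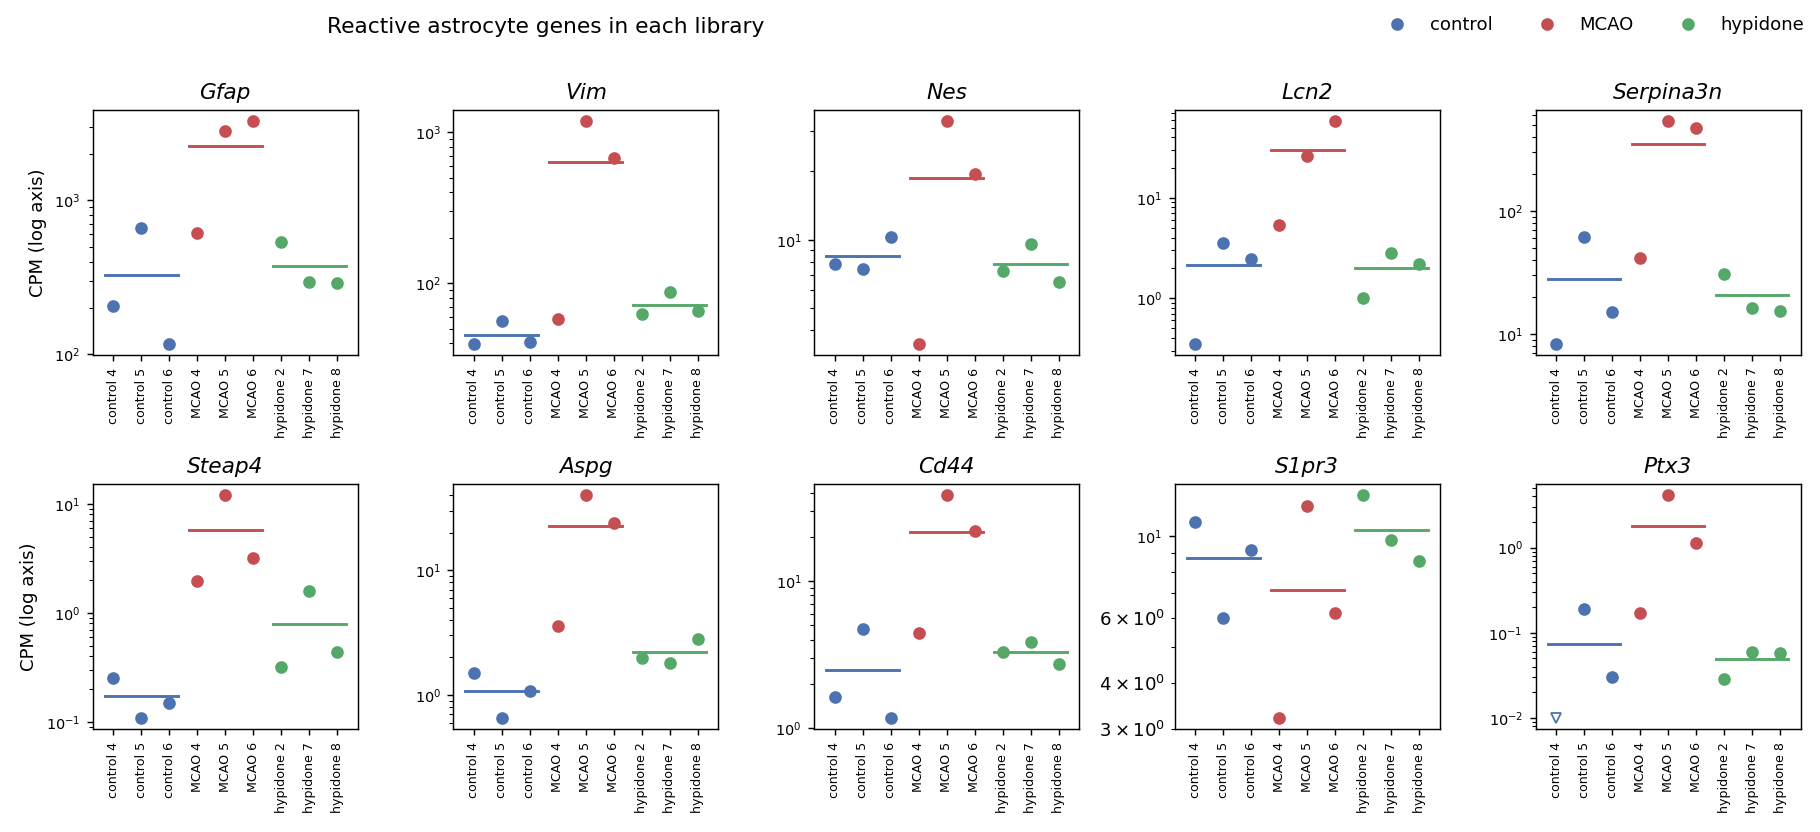
CPM (log axis) of each of the 10 genes in the 9 libraries, with 1 point a library and a line at each group's mean; the open triangle of Ptx3 marks control 4, which had 0 counts and is drawn at the bottom of the axis. MCAO 5 or MCAO 6 is the highest library for every gene but S1pr3, and MCAO 4 lies near the control and hypidone libraries for Vim (57.7 CPM) and below them for Nes (3.50 CPM).

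On the scale of the authors' FPKM, which divide by gene length and so allow genes to be set side by side, the order Gfap, Vim, Serpina3n held at the top in all 9 libraries. Gfap was at 80.2 ± 72.7 FPKM in control, 572 ± 374 in MCAO and 91.4 ± 34.5 in the hypidone group (SD, n = 3). Vim followed at 24.6 ± 5.29, 369 ± 335 and 38.9 ± 7.71 FPKM, and Serpina3n at 13.02 ± 13.4, 170.3 ± 134 and 9.54 ± 3.88 FPKM. The SD ranges of these neighbours overlapped in control and in MCAO and were apart in the hypidone group, so in the first 2 groups the order is one within libraries, not between group means. Lcn2 was the fourth in 7 libraries and S1pr3 in control 4 and hypidone 2. S1pr3 ranked 4 or 5 in control and hypidone libraries and 7 to 9 in MCAO libraries, and Ptx3 ranked last in all but control 5.

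The proportions between the filament genes also varied between libraries of a group. The ratio of Gfap to Vim FPKM was 2.32, 5.32 and 1.29 in control, 4.78, 1.07 and 2.17 in MCAO, and 3.89, 1.52 and 2.01 in hypidone libraries, so the groups overlapped. MCAO 5, the library with the most Vim, had the lowest ratio of all 9. Gfap against the resting astrocyte transporter gene Slc1a3, again as a ratio of FPKM, was 0.485, 1.40 and 0.325 in control, 1.65, 7.09 and 6.65 in MCAO, and 1.50, 0.672 and 0.682 in hypidone libraries. On this ratio every MCAO library was above every other library, although MCAO 4 was close to hypidone 2.

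The question of the first comparison, MCAO against control, is which of these genes differed between the surgery group and the controls. With no sham operation or brain region in the labels, occlusion, the rest of the surgery and dissection cannot be told apart. Of the 9 tested genes, 7 rose: Gfap, Vim, Lcn2, Serpina3n, Steap4, Aspg and Cd44, with log2 fold changes of 2.77 to 5.04 each passing the edgeR quasi-likelihood test at an adjusted p under 0.05, with Benjamini-Hochberg adjustment over all genes. Over all 14756 genes, 10.6% were higher by the same rule, and the median log2 fold change was 0.01 against 3.63 over the 9 genes. None of the 9 was lower, where 9.81% of all genes were. In 4 of the 9, namely Vim, Lcn2, Steap4 and Aspg, every MCAO library was above every control, which held for 16.5% of all genes. The genes of the list were chosen with earlier results of these data known. These and the later contrasts with all genes therefore describe the list and do not test it.

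Steap4 had the largest fitted change, a log2 fold change of 5.04 ± 0.95 (SE, adjusted p = 0.00994), and Aspg the lowest adjusted p, with 4.38 ± 0.78 (adjusted p = 0.00848). The filament gene Vim rose by 3.81 ± 0.84 (adjusted p = 0.0162). Its group means were 45.5 ± 8.96 CPM in control and 640.2 ± 566 CPM in MCAO, each with its SD over 3 libraries. Gfap rose by 2.77 ± 0.76 (adjusted p = 0.0334), with means of 327 ± 291 and 2232 ± 1419 CPM. Of the secreted proteins' genes, Lcn2 rose by 3.81 ± 0.95 (adjusted p = 0.0253) and Serpina3n by 3.63 ± 0.99 (adjusted p = 0.0332). Cd44 rose by 3.10 ± 0.76 (adjusted p = 0.0235). Nes, at 1.14 ± 0.61 (adjusted p = 0.206), and S1pr3, at -0.28 ± 0.44 (adjusted p = 0.671), did not pass the test. Ptx3 had 205 counts over the MCAO libraries against 8 over the controls; in a fit without the filter on low counts its log2 fold change was 4.49 ± 1.25 (adjusted p = 0.0382). The authors' deposited table, made by their own test, lists 8 of the 10 as higher at a q under 0.05, with folds from 6.78 for Gfap to 33.4 for Steap4, and also holds Ptx3 at 23.9.

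The number of calls depended on which libraries were in the fit. Between 2 and 9 of the genes were called when 1 of the 9 libraries was left out: 2 without control 4 or control 6, 3 without MCAO 6, 5 without MCAO 5 or without any 1 hypidone library, 8 without control 5 and 9 without MCAO 4. The last 2 counts include Ptx3, which had enough counts to enter all of these fits but those without MCAO 5 or MCAO 6; of the 9 genes tested with all libraries they hold 7 and 8. The share of all genes called higher moved in these fits too. It was 3.61% without control 4, 3.19% without control 6, 4.8% without MCAO 6 and 11.9% without MCAO 5. It was 6.4 to 7.17% without 1 hypidone library, 9.12% without control 5 and 15.7% without MCAO 4. Hypidone libraries are not part of this comparison but share its fit. Steap4 and Aspg were called in all 9 of the fits with 1 library left out. Of these 9 fits, only those without control 5 or MCAO 4 called Gfap and Serpina3n. Without MCAO 4, Nes also passed, at 1.62 ± 0.28 (adjusted p = 0.00540), and the log2 fold change of Vim was 4.35 ± 0.29. A fit of only control and MCAO libraries called 2 of the 9, Steap4 and Aspg, and in that fit 2.38% of all genes were higher.

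Hypidone against MCAO asks how the treated group differed from the untreated surgery group. The same 7 genes fell: Gfap, Vim, Lcn2, Serpina3n, Steap4, Aspg and Cd44 had log2 fold changes of -2.58 to -4.08 at an adjusted p under 0.05. By that rule 8.28% of all genes were lower, and 8.23% were higher, of which none was among the 9. The median was -2.86 over the 9 genes and -0.04 over all. In 6 of the 9, all but Vim, Nes and S1pr3, every hypidone library was below every MCAO library, which held for 19.0% of all genes. This comparison shares its MCAO libraries with the one before, so the high values of MCAO 5 and MCAO 6 enter both and the mirrored directions are not separate evidence.

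Serpina3n fell by 4.08 ± 1.01 on the log2 scale (adjusted p = 0.0278), the means being 350.6 ± 269.8 CPM in MCAO and 20.7 ± 8.46 CPM in the hypidone group, and Lcn2 by 3.90 ± 0.96 (adjusted p = 0.0269). Aspg fell by 3.36 ± 0.74 (adjusted p = 0.0187) and Vim by 3.16 ± 0.81 (adjusted p = 0.0311). Steap4 fell by 2.86 ± 0.83 (adjusted p = 0.0460), Cd44 by 2.71 ± 0.74 (adjusted p = 0.0393) and Gfap by 2.58 ± 0.75 (adjusted p = 0.0466). Nes, at -1.26 ± 0.61 (adjusted p = 0.175), and S1pr3, at 0.54 ± 0.44 (adjusted p = 0.408), did not pass. For Ptx3 the fit without a filter gave -5.10 ± 1.31 (adjusted p = 0.0341), on 5 counts over the hypidone libraries. The authors' deposited table lists 8 of the 10 as lower at a q under 0.05, by factors of 0.168 for Gfap and 0.0594 for Serpina3n.

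The adjusted p values here lay close to the threshold. None of the 7 calls held in every fit that left out 1 library: 0 genes were called without MCAO 6 or without any 1 of the hypidone libraries, 3 without MCAO 5 (Lcn2, Serpina3n and Aspg), 5 without control 4 or control 6, 8 without control 5 and 9 without MCAO 4. Ptx3 is 1 of those called without control 4, control 5 or MCAO 4, and S1pr3 was called in none of these fits. The share of all genes called lower, 8.28% with all libraries, moved too. It was 2.28% without MCAO 6 and 1.66, 1.56 and 1.55% without hypidone 2, 7 and 8. It was 10.7% without MCAO 5, 5.97, 10.3 and 5.43% without control 4, 5 and 6, and 14.1% without MCAO 4. By limma voom with quality weights, which called 25.2% of all genes lower and 26.5% higher, Nes also passed, at -1.09 ± 0.35 (adjusted p = 0.0237), and so did S1pr3 in the other direction, at 0.70 ± 0.23 (adjusted p = 0.0267). The directions of the 9 genes held in all fits with 1 library left out, and Gfap, for example, stayed between -2.19 without MCAO 6 and -3.02 without MCAO 4.

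**Figure D2:**
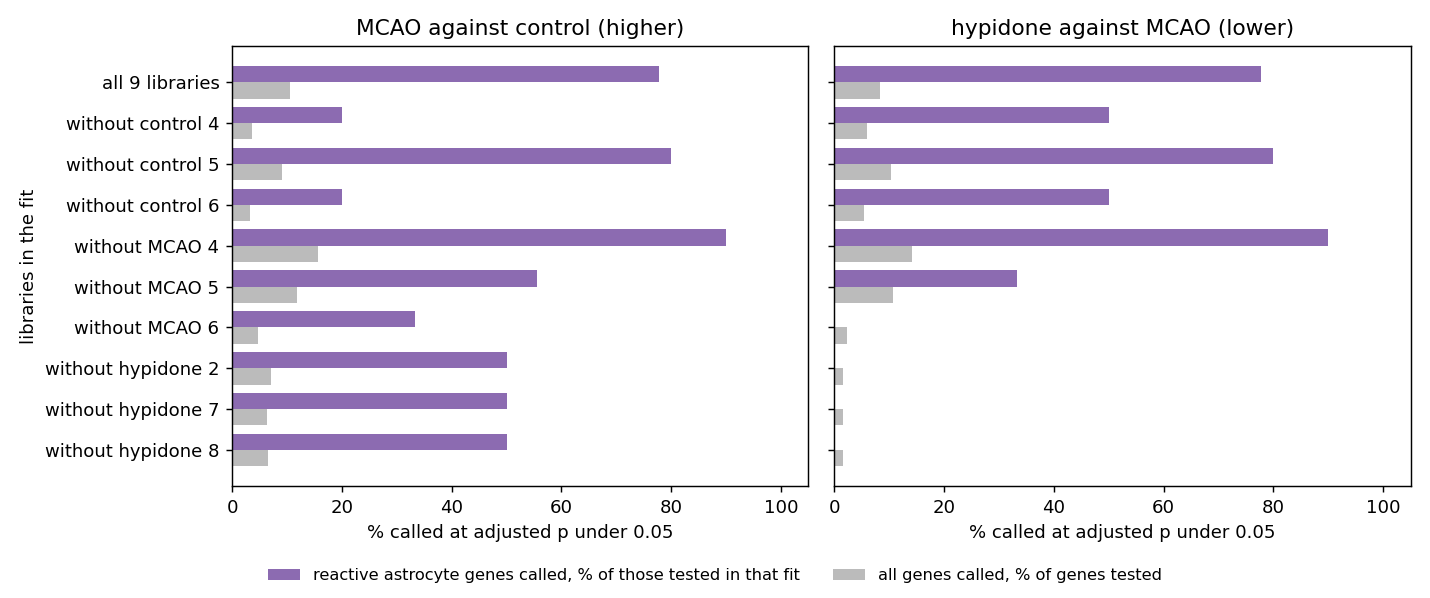
Share called (x axis, %) among the reactive astrocyte genes tested and among all genes tested, with all 9 libraries and with each library left out in turn (y axis), for genes higher in MCAO against control (left) and lower in hypidone against MCAO (right). Without MCAO 6 or any 1 hypidone library the right panel has no purple bar, and without MCAO 4 both panels have their longest.

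Hypidone against control asks whether the treated group still differed from the controls. None of the 9 genes was called, and none of all 14756 (0% higher and 0% lower by edgeR at an adjusted p under 0.05, and 131 genes at an unadjusted p under 0.05; DESeq2 called 1 gene). Steap4 was the one gene of the 9 with an unadjusted p under 0.05 by edgeR, at 2.18 ± 0.90 and an adjusted p that rounds to 1. The other 8 had log2 fold changes between -0.45 for Serpina3n and 1.03 for Aspg. All hypidone libraries were above all controls for 3 of the 9, Vim, Steap4 and Aspg, where 3.86% of all genes had that pattern. The standard errors ran from 0.44 for S1pr3 to 0.90 for Serpina3n, so the missing calls do not show equal levels. These errors use a spread shared by all 3 groups, so the MCAO libraries enter them too. In the fit without MCAO 4 they ran from 0.24 for Vim to 0.82 for Steap4, and again 0% of all genes were called. Gfap, for which control 5 was the highest and control 6 the lowest of the 6 libraries, was at 374 ± 141 CPM against 327 ± 291 in control.

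**Figure D3:**
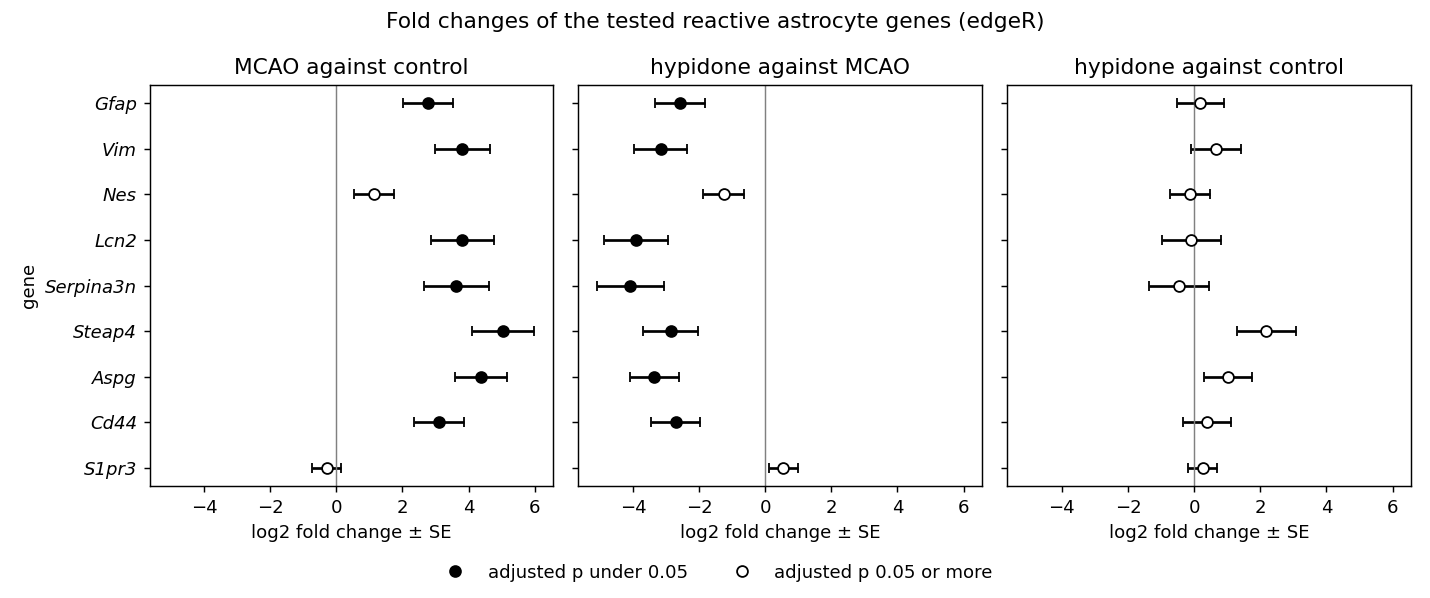
Log2 fold change ± SE (x axis) of the 9 tested genes (y axis) in the 3 comparisons, filled where the adjusted p was under 0.05. The same 7 genes are filled to the right of 0 for MCAO against control and to the left for hypidone against MCAO, and no gene is filled for hypidone against control, where Steap4 is the farthest from 0 at 2.18.

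The 10 genes did not follow 1 order over the MCAO libraries. MCAO 5 was the highest of all libraries for 7 of them, Vim, Nes, Serpina3n, Steap4, Aspg, Cd44 and Ptx3, while Gfap and Lcn2 were highest in MCAO 6 and S1pr3 in hypidone 2. The mean log2 CPM over the 9 tested genes was 3.50, 6.48 and 5.94 in MCAO 4, 5 and 6, between 2.33 and 3.07 in controls and between 3.02 and 3.37 in hypidone libraries. MCAO 4 was thus nearer to the hypidone libraries than to the other MCAO libraries. It was above all controls for Vim, Lcn2, Steap4 and Aspg, within their range for Gfap, Serpina3n, Cd44 and Ptx3, and below them for Nes and S1pr3.

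Likeness of profile was measured as the root mean square difference of log2 CPM over the 9 libraries, each gene centred on its own mean, where 0 is an identical profile. Gfap and Cd44 were the closest pair among the 9, at 0.39, followed by Vim with Cd44 at 0.51 and Vim with Aspg at 0.62. Lcn2 and S1pr3 were the farthest apart, at 2.32. Among 12559 other genes with a mean log2 CPM of at least 1, the nearest to Gfap were Plce1, a phospholipase C gene, at 0.48 and the complement gene C4b at 0.51. The nearest to Serpina3n was A2m, which encodes the protease inhibitor alpha-2-macroglobulin, at 0.66, and then Cd84. Nearest to Vim were Klhl6 and Apobec1, to Cd44 Glipr2 and Csf2rb, to Aspg Igsf6 and Klhl6, and to Steap4 Itih2 and Tubb6. Lcn2 had no gene closer than Ecel1, at 0.87. Nes was nearest to P4ha3 and Baz1a and S1pr3 to Mitd1 and Zfp160. All these profiles share the same 9 libraries, and the distances of genes with little spread, such as S1pr3, are small for that reason.

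**Figure D4:**
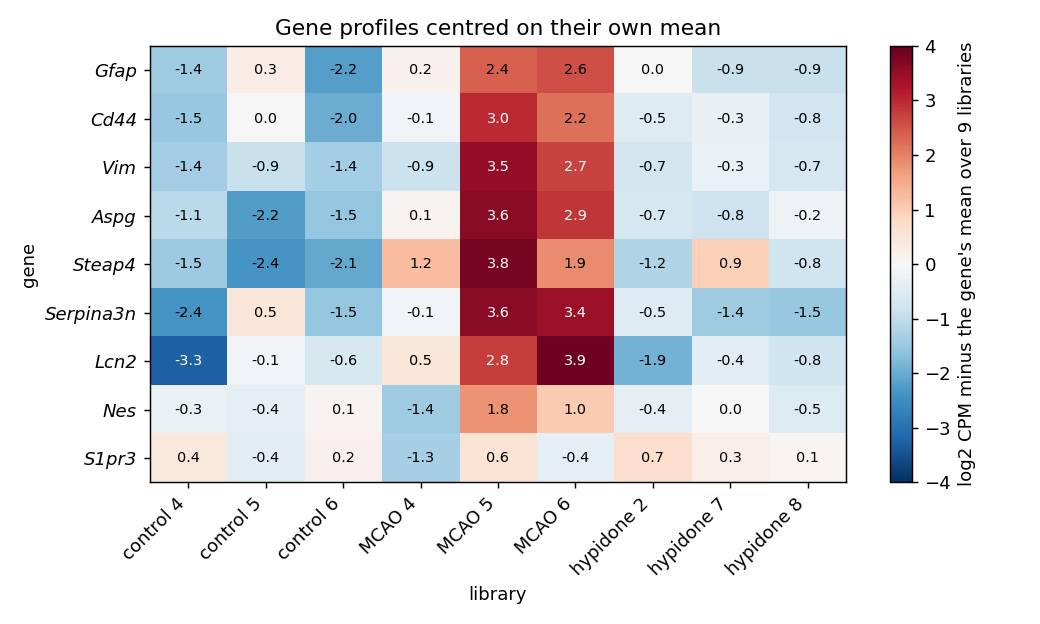
Log2 CPM of the 9 tested genes (rows) in the 9 libraries (columns), each centred on the gene's mean over all libraries, red above and blue below it. MCAO 5 is above the mean for all 9 genes and MCAO 6 for all but S1pr3, while MCAO 4 runs from -1.43 for Nes to 1.23 for Steap4.

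Of 5 further genes raised in most reactive astrocytes, 4 rose with MCAO and none fell: the oncostatin M receptor gene Osmr (2.80 ± 0.48), the protease inhibitor gene Timp1 (4.83 ± 1.03), the ferroxidase gene Cp (2.17 ± 0.57) and the heat shock gene Hspb1 (2.29 ± 0.64). Cxcl10, a chemokine gene, was at 2.06 ± 0.79 and did not pass. Osmr alone of the 5 fell in hypidone against MCAO, by 2.54 ± 0.47. Of all genes, 10.6% were higher with MCAO and 8.28% lower in hypidone against MCAO. The count of 4 was 1 without control 6 and 5 without MCAO 4. The count of 1 in hypidone against MCAO ran from 0, without hypidone 7 or hypidone 8, to 5. With 1 library left out, the shares of all genes ran from 3.19 to 15.7% and from 1.55 to 14.1%.

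Of 12 tested genes linked to a neurotoxic type of reactive astrocyte, 6 rose with MCAO, 0 fell, and 3 fell in hypidone against MCAO. Over all genes, 10.6% were higher with MCAO and 8.28% lower in hypidone against MCAO. Fkbp5, which is induced by glucocorticoids, rose by 2.27 ± 0.36 and the proteoglycan gene Srgn by 1.85 ± 0.46. The tested genes of this list that did not pass with MCAO pointed in both directions. C3 was at 2.39 ± 1.07, Amigo2 at 1.03 ± 0.65, Psmb8 at 0.79 ± 0.59 and H2-T23 at 0.64 ± 0.43. Iigp1 was at -0.42 ± 0.68 and Gbp2 at -0.58 ± 0.74. Fkbp5 was at 183, 272 and 185 CPM in MCAO 4, 5 and 6 and at 27.3 to 73.1 CPM in controls, so its groups did not overlap. Of 11 genes linked to an injury-repair type, 5 rose and 3 fell in these comparisons, among them Tgm1, a transglutaminase gene, at 7.69 ± 1.63 and -4.65 ± 1.32, and the steroid sulfate transporter gene Slc10a6, at 6.79 ± 0.90 and -5.94 ± 0.83. Slc10a6 had almost no counts in control and hypidone libraries, so its fitted values depend on the prior count. The median log2 fold changes with MCAO were 1.59 for the first list and 2.45 for the other, against 0.01 over all genes. These and the other companion lists were also chosen with earlier results known, so the contrast is a description. Left-out libraries moved the counts called higher from 6 to between 1 (without control 4, control 6 or MCAO 6) and 7, and from 5 to between 2 (without control 4 or control 6) and 6. In hypidone against MCAO both counts of 3 ran from 1, without MCAO 6 or any 1 hypidone library, to 7. Fkbp5 and Slc10a6 passed in all 9 fits of both comparisons.

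Of 14 markers of resting astrocytes, 4 rose with MCAO and none fell: the connexin gene Gjb6 (1.63 ± 0.29), the transcription factor gene Sox9 (0.74 ± 0.17), the potassium channel gene Kcnj10 (0.91 ± 0.27) and the growth factor receptor gene Fgfr3 (0.74 ± 0.23). Gjb6 and Sox9 fell in hypidone against MCAO, by 1.45 ± 0.29 and 0.86 ± 0.17. The shares of all genes were 10.6% higher with MCAO and 8.28% lower in hypidone against MCAO. The median over the 14 was 0.36 with MCAO, beside 3.63 over the reactive genes. Sox9 was at 40.9, 29.1 and 38.6 CPM in MCAO 4, 5 and 6, so that MCAO 4 was its highest library, while the 6 other libraries had between 18.4 and 25.3 CPM. The number of these markers called with MCAO was 1 without control 4, control 6 or MCAO 6, and 6 without MCAO 4. The 2 that fell in hypidone against MCAO were 0 without hypidone 2 and at most 5 with another library left out.

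**Figure D5:**
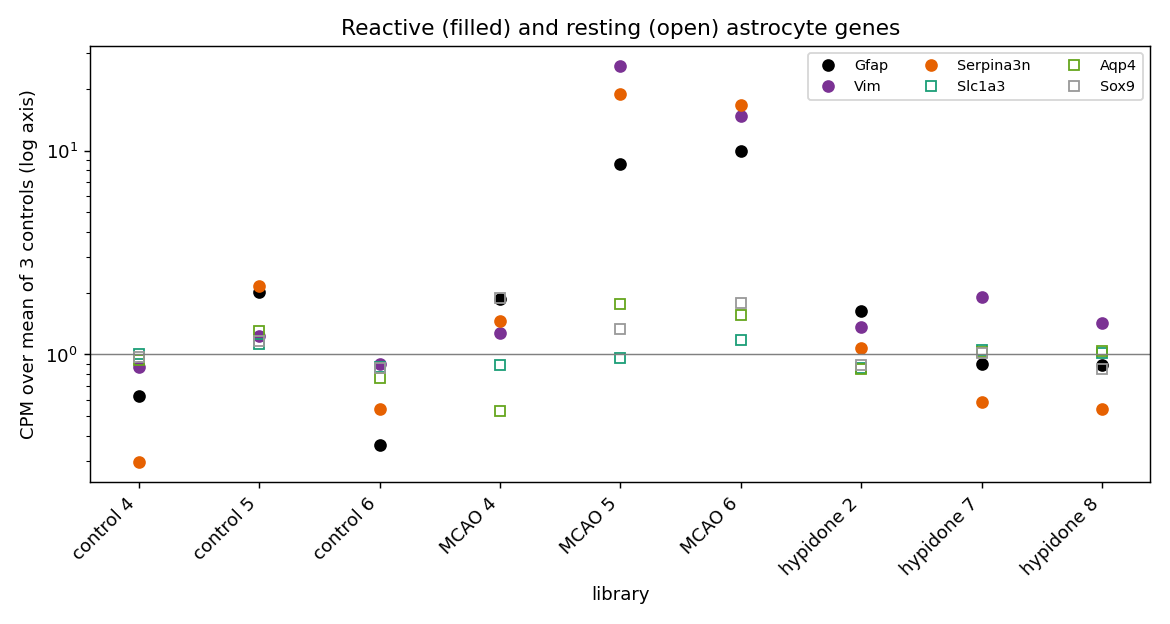
CPM of 3 reactive (Gfap, Vim, Serpina3n; filled) and 3 resting (Slc1a3, Aqp4, Sox9; open) astrocyte genes in the 9 libraries (x axis), each divided by its mean over the 3 controls (y axis, log axis; the grey line marks 1). In MCAO 5 and MCAO 6 the filled points lie far above the open ones, and in MCAO 4 Vim is near 1.

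Of 10 other filament genes of neurons, glia and the nucleus, the lamin gene Lmna rose with MCAO by 0.92 ± 0.23, while the neuronal filament genes Nefl and Ina fell by 1.04 ± 0.20 and 0.73 ± 0.16 and rose in hypidone against MCAO by 0.94 ± 0.20 and 0.70 ± 0.16. Of all genes, 10.6% were higher and 9.81% lower with MCAO, and 8.23% were higher in hypidone against MCAO. The median of the 10 with MCAO was 0.06, beside 0.01 over all genes, with genes of the list moving in both directions. Their summed CPM was lower in every MCAO library, at 864 to 1249, than in every other library. It was 1326 to 1825 in control and 1447 to 1761 in hypidone libraries. The call of Lmna was lost without control 4 or MCAO 6, that of Ina with MCAO without control 4, control 6 or MCAO 6, and those of Nefl and Ina in hypidone against MCAO without MCAO 6 or any 1 hypidone library. Of 15 tested STAT3 pathway and cytokine receptor genes, 7 rose with MCAO and 6 fell in hypidone against MCAO, where 10.6% and 8.28% of all genes did. Socs3, a feedback inhibitor induced by STAT3, was at 3.55, 1.17 and 4.06 CPM in control, 13.2, 29.9 and 40.7 CPM in MCAO and 5.38, 6.61 and 5.36 CPM in hypidone libraries. It rose by 3.26 ± 0.52 and fell by 2.27 ± 0.49, and its groups did not overlap in either case. Stat3 itself rose by 1.32 ± 0.26 and fell by 1.14 ± 0.26, and the cytokine gene Osm, on at most 1.54 CPM, rose by 4.63 ± 0.92. The 7 calls were 2 without control 6, and the 6 were 0 without MCAO 6, hypidone 2 or hypidone 8.

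Partners of single genes were mixed. Of 12 tested genes of hyaluronan turnover and CD44 binding, 4 rose with MCAO and 1 fell. By the same rule 10.6% of all genes were higher with MCAO and 9.81% lower. The osteopontin gene Spp1, a ligand of CD44 made by macrophages, was at 23.3, 4961 and 295 CPM in MCAO against at most 32.9 CPM elsewhere (7.20 ± 1.69), and the proteoglycan gene Vcan rose by 1.52 ± 0.29. The hyaluronan synthase gene Has3 fell by 1.94 ± 0.52, on at most 1.22 CPM. Left-out libraries moved the 4 to between 1 (without control 6) and 5, and the call of Has3 held in 2 of the 9 fits, without MCAO 4 or MCAO 5. In the sphingosine-1-phosphate system, where S1pr3 did not pass, 5 of 11 genes rose and 1 fell: the lyase gene Sgpl1 rose by 1.93 ± 0.31, the phosphatase gene Sgpp1 by 0.79 ± 0.10 and the lysolipid transporter gene Mfsd2a by 1.18 ± 0.27, while the receptor gene S1pr5 fell by 1.14 ± 0.28. The 5 became 2 without control 4, control 6 or MCAO 6, and S1pr5 did not pass without control 5, control 6 or MCAO 6. Of 6 genes of lipocalin-2 partners in iron handling and binding, Mmp9, whose protease lipocalin-2 binds, rose by 1.26 ± 0.38, a call held only without MCAO 4 or hypidone 2 among the 9 fits with 1 library left out, and Slc22a17, a lipocalin-2 receptor gene, was at -0.13 ± 0.23. The other STEAP genes tested, Steap2 and Steap3, were at 0.30 ± 0.28 and 0.62 ± 0.73, and the asparagine genes Asns, Asrgl1 and Nars at -0.36 ± 0.23, -0.24 ± 0.18 and -0.09 ± 0.17; none of these passed.

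Markers of other cells also differed between the libraries. The summed CPM of 10 macrophage and monocyte markers was 23.1 to 31.9 in control, 41.9, 2737 and 301 in MCAO 4, 5 and 6, and 46.8 to 135 in hypidone libraries, the order within MCAO being that of all the 10 genes but Gfap and Lcn2. The lysozyme gene Lyz2 reached 1468 CPM in MCAO 5. That of 10 microglia markers was 487 to 529, then 514, 1661 and 843, then 527 to 636. Of the 9 macrophage markers tested, 5 rose with MCAO and 2 fell in hypidone against MCAO, where 10.6% and 8.28% of all genes did. All 5 calls were lost without control 4 and also without control 6. The 2 that fell, Msr1 and Gpnmb, were called in 2 of the 9 fits with 1 library left out. The summed CPM of 9 pericyte and fibroblast markers was 1428 in MCAO 5 and at most 534 elsewhere, and that of 8 endothelial markers 629 and at most 361. Neutrophil markers summed to at most 3.58 CPM in control, 17.0 in MCAO and 17.1 in hypidone libraries, with the defining marker Ly6g at 3 counts over all 9. Neuron markers summed to 6581 CPM in MCAO 5, 9056 CPM in MCAO 6 and between 9517 and 13642 CPM in the other 7 libraries. All 5 erythrocyte markers rose in hypidone against MCAO, where 8.23% of all genes did. They summed to 4.31 to 28.0 CPM in MCAO and 71.3 to 187 in the hypidone group. Their calls, all but that of Hba-a1, were lost without hypidone 7 and also without hypidone 8. The part of these cells in the levels of the reactive astrocyte genes was not tested.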

How the data were processed

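RNA-seq of total RNA from mouse brain was used in 9 libraries, 3 a group; groups come from the labels. Per the labels' protocols, TRIzol was used for extraction and a VAHTS Universal kit for the libraries. The deposited count table holds unnormalized counts by gene symbol, and the deposited FPKM table the same counts divided by library total and by 1 constant length a gene. The authors' deposited table gives a ratio (fold) and a q-value per gene. Per the submitters' processing notes the build is mm10 and DESeq2 was used, with no role or version; aligner, counter and strandedness were not given in the sources used here.

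Genes were filtered with filterByExpr and scaled with TMM, and 1 quasi-likelihood fit (edgeR 4.0.16, R 4.3.3) of all 9 libraries, with 6 residual degrees of freedom, gave each comparison as a two-sided F test, adjusted by Benjamini-Hochberg at 0.05. Standard errors are the log2 fold change over the root of F. Alternatives used limma 3.58.1 and DESeq2 1.42.0. The genes and the companion lists were chosen with earlier results of these data known. Named besides the 10 genes were, for each list, up to 4 called genes with the lowest adjusted p a comparison, all genes of lists of up to 6, cell type markers at the highest or lowest level, and the 2 genes of nearest profile. Slc1a2, Slc1a3, Aqp4, Lyz2, Ly6g, C3, Psmb8, H2-T23, Iigp1 and Gbp2 beyond that rule were named after their values were seen. Profile distances and mean log2 CPM use a prior count of 2.

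On simulated data of 14756 genes 85 of 100 genes with a 4-fold change and 32 of 100 with a 2-fold change were found for MCAO against control, and 12 of 129 calls were false. Hypidone against MCAO gave 78, 28 and 5 of 111, and hypidone against control 79, 34 and 2 of 115. For MCAO against control the share of false calls was above the 0.05 aimed at. The simulation changed 100 genes 4-fold and 100 genes 2-fold. In the real data 3015 genes were called for MCAO against control, 2437 for hypidone against MCAO and 0 for hypidone against control. The biological coefficient of variation there was 41.4% in MCAO, 29.4% in control and 14.5% in the hypidone group. Whether the simulated rates hold for such data was not tested.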

Additional observations from a re-analysis of the deposited data

How the results depend on the processing

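Of the 9 reactive astrocyte genes tested, 7, 7 and 0 were called in MCAO against control, hypidone against MCAO and hypidone against control. With MCAO the count was 4 on log2(FPKM + 1) and 5 on log2(FPKM + 0.1). It was 2 with only the 2 groups compared and 0 with a minimum fold of 2. In these 4 fits 8.67%, 9.3%, 2.38% and 0.163% of all genes were higher. With 1 library left out the count was 2 to 9. For hypidone against MCAO it was 1 on log2(FPKM + 1), 3 on log2(FPKM + 0.1), 5 with only the 2 groups compared, 0 with a minimum fold of 2, and 0 to 9 with 1 library left out; of all genes 7.54%, 7.81%, 6.66% and 0.0271% were lower in the first 4 of these. The highest counts with 1 library left out include Ptx3. In the fits with 1 library left out, 3.19 to 15.7% of all genes were higher with MCAO. In hypidone against MCAO, 1.55 to 14.1% were lower. Why the FPKM fits and the left-out libraries moved the counts was not tested; a minimum fold asks for more than a difference from 0. Other scaling, other filters and DESeq2 gave 7 or 8 in both, the 8 with Ptx3 and no filter. Limma voom with quality weights gave 7 with MCAO and 9 for hypidone against MCAO, of which 8 were lower and 1, S1pr3, higher. Hypidone against control gave 0 in all fits.

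Single log2 fold changes turned sign, all without a call. In hypidone against control, Lcn2 was at 0.79 by voom, 0.085 on log2(FPKM + 1) and 0.29 on log2(FPKM + 0.1), and between -0.58 and 0.50 with 1 library left out; Serpina3n was at 0.44 by voom and 0.0013 on log2(FPKM + 0.1), and between -0.88 and 0.82. With 1 library left out, Gfap ran from -0.21 (without control 6) to 1.22 (without control 5) and Nes from -0.30 to 0.037, and in MCAO against control S1pr3 from -0.87 (without MCAO 5) to 0.062 (without MCAO 4). No other direction of the 9 genes changed in any fit.

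Control and MCAO share title numbers, but no label says that the numbers pair samples, so they were not taken to. Deviations of same-numbered libraries correlated at 0.118, 0.123 and -0.0421, and those of different numbers at -0.151 to 0.124. With 3 libraries a group these values cannot decide whether samples were paired. With the number as a replicate block, 0 of the 9 genes and 0 of 14489 genes were called in MCAO against control; hypidone libraries share no number. The 8, 205 and 5 counts of Ptx3 over the 3 groups limit its precision.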
